A study of Mus musculus with 6 samples.

Results

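Rmrp and 4 other RNAs that fold into stable structures were described in the brains of male and female mouse embryos. Rmrp, Rpph1, Rn7sk, Terc and the 45S pre-ribosomal RNA, listed under the RefSeq ID NR_046233, were named for this purpose. They were chosen by their high counts in these libraries, with other results of the same samples known, so their abundance is a description and supports nothing. Of the 5, 4 were measured, among 23485 RefSeq IDs, and all 4 passed the filter on low counts, as did 13374 IDs in all. Rn7sk was not analysed here. Terc did not match the description as abundant, with 14 to 125 counts per library, and is given here as a rare RNA of the same kind.

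The samples were whole brains of wild-type C57BL/6 embryos at stage E15.5, 3 of females and 3 of males, and the study asked which transcripts differ between the sexes at this stage. No genotype or treatment set the groups apart. Each sample was RNA pooled from 2 to 3 embryos, whose sex was read from whether the gonad held testicular cords. The libraries were stranded, made from total RNA and read from both ends. In bulk tissue, fewer cells of a type and less RNA per cell cannot be told apart.

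Rmrp is the RNA subunit of RNase MRP, a ribonuclease that cuts the precursor of ribosomal RNA between its small and large subunit parts. Rpph1 is the RNA subunit of RNase P, which removes the leader from precursors of transfer RNA, and both enzymes share most of their proteins. Both RNAs are made by RNA polymerase III from promoters that lie upstream of the gene. Terc is the RNA of telomerase and holds the template for telomere repeats, and is made by RNA polymerase II. The 45S pre-ribosomal RNA is the long transcript of RNA polymerase I from which mature ribosomal RNAs are cut, so its spacers are substrates of the processing in which RNase MRP takes part.

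The 3 genes with a position in the mouse genome build NCBIM37, the build that the files use under the name mm9, lie apart from each other. Rmrp is at chr4:43505660-43505930 on the minus strand, a noncoding gene of 271 bases in the GENCODE annotation and 275 in RefSeq, with 64.2% G and C. Of these bases, 159 overlap Ccdc107, a protein-coding gene on the opposite strand. Rpph1 is at chr14:51427124-51427442 on the minus strand, 319 bases long in GENCODE, and begins 179 bases from Parp2, which encodes a DNA repair polymerase and runs the other way. Terc is at chr3:96218360-96218782 on the minus strand, 423 bases long in GENCODE and 397 in RefSeq, and overlaps no other gene. Starts given below are those of GENCODE. Which end of Terc differs in RefSeq was not determined, so its RNA may begin elsewhere. None of the 3 had another place in the genome that matched at least 90% of its length with at least 90% identity. For NR_046233 the gene tables used here gave no symbol, length or position.

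The sequences of Rmrp and Rpph1 are shown because their levels set most of the comparisons, each 5′ to 3′ on the strand of the gene. The Rmrp RNA is whole, at the position given above, and for Rpph1 its first 300 bases are given, chr14:51427143-51427442.
Rmrp RNA: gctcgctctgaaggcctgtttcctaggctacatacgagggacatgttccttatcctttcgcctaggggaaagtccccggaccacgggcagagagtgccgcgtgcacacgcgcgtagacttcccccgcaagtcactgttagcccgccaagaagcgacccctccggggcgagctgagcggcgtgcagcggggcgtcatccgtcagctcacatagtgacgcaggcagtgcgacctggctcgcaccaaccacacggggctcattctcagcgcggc
Rpph1 RNA: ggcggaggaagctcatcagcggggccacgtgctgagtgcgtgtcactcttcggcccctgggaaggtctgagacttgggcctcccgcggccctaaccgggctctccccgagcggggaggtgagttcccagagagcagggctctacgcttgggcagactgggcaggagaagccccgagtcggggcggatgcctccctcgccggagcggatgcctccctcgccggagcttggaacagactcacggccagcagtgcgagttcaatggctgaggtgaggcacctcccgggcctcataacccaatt

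The 120 bases before the start of each of the 3 genes are shown because these RNAs are compared in how they moved together, and each promoter is where its polymerase is recruited. Capitals mark the motifs found by exact search on both strands. The region was chr4:43505931-43506050 for Rmrp, chr14:51427443-51427562 for Rpph1 and chr3:96218783-96218902 for Terc, all read on the minus strand.
Rmrp upstream: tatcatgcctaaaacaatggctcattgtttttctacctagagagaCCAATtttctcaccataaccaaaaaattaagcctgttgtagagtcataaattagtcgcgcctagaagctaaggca
Rpph1 upstream: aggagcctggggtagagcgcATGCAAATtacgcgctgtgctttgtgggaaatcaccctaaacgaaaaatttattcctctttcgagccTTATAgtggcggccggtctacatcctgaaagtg
Terc upstream: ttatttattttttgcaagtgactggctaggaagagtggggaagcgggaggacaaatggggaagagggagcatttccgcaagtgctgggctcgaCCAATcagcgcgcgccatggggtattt

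Over a window from 250 bases before to 50 bases after the start, 4 short motifs were searched. The octamer ATTTGCAT, bound by POU factors, lay 100 to 93 bases before the start of Rpph1 on the opposite strand and 223 to 216 bases before the start of Rmrp, beyond the printed stretch. It was not in the Terc window, and 1.7% of 32851 RefSeq promoter windows of the same length in build GRCm38.p6 held it. The TATA core TATAA, on the opposite strand, lay 33 to 29 bases before Rpph1 and 168 to 164 bases before Rmrp, and 24.9% of the windows held it. The CCAAT box, spelled CCAAT, lay 75 to 71 bases before Rmrp and 27 to 23 bases before Terc, and was in 37.4% of windows. The ZNF143 core ACTACAA, in 3.2% of windows, was in none of the 3. These are matches of letters and do not show binding.

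The first 96 bases of the GENCODE gene of Terc, chr3:96218687-96218782, are shown for the telomere template. It is in capitals at positions 29 to 36, counted from the first base of that gene. Bases before the template may lie outside the RNA if the shorter RefSeq length starts later.
Terc RNA: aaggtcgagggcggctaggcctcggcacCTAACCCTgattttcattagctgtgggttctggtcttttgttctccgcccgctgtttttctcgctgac

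The libraries held 4908565 to 10294443 counts. Male sample 1 stood apart from the others, with the lowest TMM factor (0.9405) and 20428 counts of the nuclear long noncoding RNA Malat1, against 43877 to 88510. It also had the most counts, though male sample 3 was near it at 9841299. IDs at 0 were 6743 in male sample 1 and 6280 in male sample 2, against 4120 to 5183 in the other libraries. Joint shares, sex differences of the 4 RNAs, distances between them and SDs are given with and without it, and nearest profiles and levels per length with it only. Xist, transcribed from the inactive X chromosome, had 6153 to 10001 counts in females and 4 to 7 in males, and Ddx3y, on the Y chromosome, had 0 to 1 and 1308 to 1970, so the labels of sex hold. Summed markers of neurons were 2520 to 2980 CPM (counts scaled to a common library size) in females and 2910 to 3580 in males (5 of 5 markers had an ID), and those of neural progenitors 2440 to 2760 and 2550 to 2900 (4 of 5). Those of choroid plexus, a tissue of the brain, were 422 to 512 and 543 to 659 (2 of 3). Markers of blood and of tissues outside the brain were also counted. Skeletal muscle markers reached 3230 to 3790 CPM in females and 2570 to 3620 in males (4 of 5), and epidermis 791 to 915 and 666 to 1420 (4 of 5). Erythroid cells were at 739 to 1010 and 625 to 1210 (4 of 7, Alas2 at 3 counts or fewer). Cartilage was at 97.6 to 185 and 51.2 to 134 (4 of 4, Acan at 3 counts or fewer). Neuron markers thus overlapped between the sexes and choroid plexus markers did not, and their part in the results below was not tested.

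NR_046233, Rpph1 and Rmrp took a sizeable part of every library. Together with Terc they made up 3.40%, 2.06% and 2.1% of the counts of females 1 to 3, and 6.37%, 2.59% and 2.22% of males 1 to 3. The mean was 2.52% ± 0.763 (SD, n = 3) in females and 3.73% ± 2.30 (SD, n = 3) in males, and without male sample 1 the male mean was 2.41%. The joint share of the sexes overlapped, and male sample 1 was the only library above 3.40%. Depth was no limit for these 3 RNAs, since the 95% Wilson interval of a share, which covers counting error only, reached at most 2.58% of the value to either side.

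**Figure D1:**
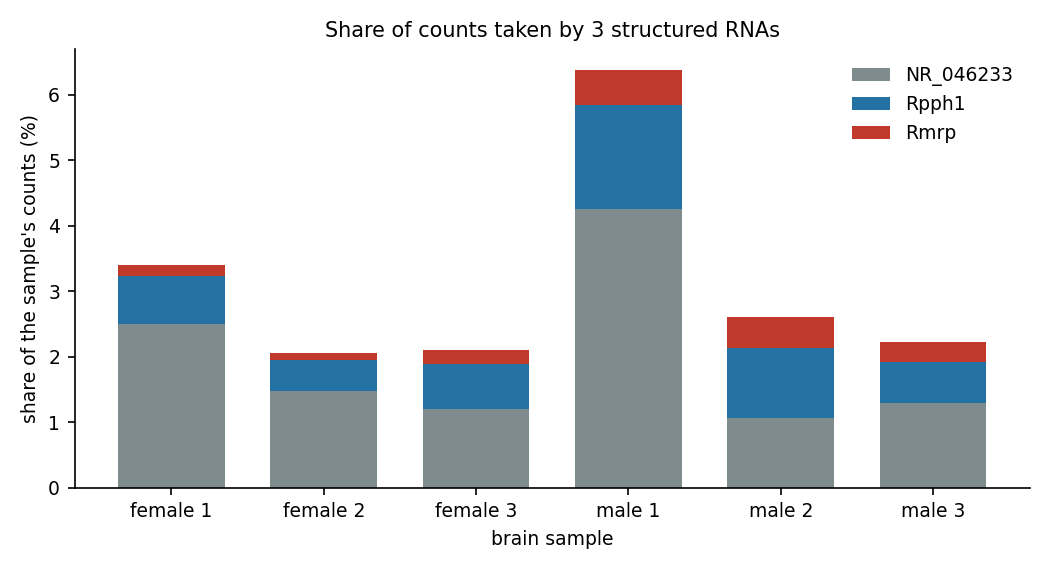
Stacked bars give the percent of each sample's counts taken by NR_046233 (grey), Rpph1 (blue) and Rmrp (red) in the 3 female and 3 male brain samples. Male sample 1 reached 6.37% with all 4 measured RNAs, against 2.06% to 3.40% in the other samples, and most of each bar but that of male sample 2 was NR_046233.

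NR_046233 was the ID with the most counts in 5 libraries and ranked 2 in male sample 2. Its counts were 155508, 72640 and 118471 in females and 438628, 67325 and 126680 in males, which is 2.50%, 1.48% and 1.21% against 4.26%, 1.06% and 1.29% of the library. Male sample 1 was the highest and male sample 2 the lowest of all 6, so the females lay within the range of the males. How ribosomal RNA was removed from each library is not given in the sources used here, and its part in these values was not tested. Mature ribosomal RNAs are cut from this transcript, so reads of the precursor and of mature RNA cannot be told apart here. This also holds for the ratios to NR_046233 below.

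Rpph1 ranked between 1 and 9 among all IDs. It had 45830, 22834 and 66676 counts in females, or 0.738%, 0.465% and 0.678% of the library, and 162465, 68056 and 62278 in males, or 1.58%, 1.07% and 0.633%. Males 1 and 2 lay above every female, and male 3 lay below females 1 and 3. In male sample 2 Rpph1 was the most counted ID.

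Rmrp had the fewest counts of the 3 and was the RNA whose shares separated by sex. It had 9827, 5753 and 21127 counts in females, or 0.158%, 0.117% and 0.215%, and 54800, 29849 and 29643 in males, or 0.532%, 0.469% and 0.301%. Every male share was above every female share, and the mean share of the males was 2.65 times that of the females. Its rank among all IDs was 32, 61 and 19 in females and 8, 11 and 15 in males.

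Terc was counted 66, 14 and 67 times in females and 125, 82 and 84 times in males. This is 10.6, 2.85 and 6.82 CPM, and 12.1, 12.9 and 8.54 CPM. At this depth the 95% Wilson interval was wide, from 1.70 to 4.79 CPM in female sample 2 and from 10.2 to 14.5 CPM in male sample 1. Those of female sample 1 (8.36 to 13.5 CPM) and male sample 3 (6.89 to 10.6 CPM) overlapped, as did the sexes.

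Levels of different RNAs were compared per length. On TMM-scaled CPM per kilobase of the RefSeq length, Rpph1 averaged 26700 ± 13500 (SD, n = 6), Rmrp 10900 ± 6430 and Terc 22.7 ± 9.70. Rpph1 was above Rmrp, and Rmrp above Terc, in each of the 6 samples. Over both sexes together the mean level of Rmrp per kilobase was 40.8% of that of Rpph1. The ratio differed between samples, and by counts it ran from 0.214 in female sample 1 to 0.476 in male sample 3. This scale does not give molecules per cell.

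The sexes were then compared with edgeR's quasi-likelihood test on the whole table. At a Benjamini-Hochberg adjusted p under 0.05, 4 of 13374 IDs were called, or 0.0299%, and none of the 4 members was among them. At an unadjusted p under 0.05 and higher in males were 2 of the members, Rmrp and Rpph1, against 6.68% of all IDs. The called IDs were Xist, higher in females, and Ddx3y, Kdm5d and the histone gene H4c2, higher in males. Over all tested IDs the log2 fold change had a median of -0.01.

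Rmrp was 1630 ± 504 CPM in females and 4392 ± 1357 CPM in males (SD, n = 3 each). Its log2 fold change, male minus female, was 1.43 with an SE of 0.24, and the adjusted p from edgeR was 0.127. It had the 5th smallest p of the table, next after the called IDs. Rmrp was the only one of the 4 members whose CPM did not overlap between the sexes, a property that 8.7% of all tested IDs had with males above.

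Whether Rmrp was called depended on the fit, and the direction did not in any of 14 alternatives, where its log2 fold change ran from 1.21 to 1.69. DESeq2 gave an adjusted p of 0.0177 (1.91% of its IDs called) and DESeq2 with 1 RUVr factor 0.00461 (4.82% called). edgeR called it without the low-count filter (adjusted p = 1.27e-19, 1.18% of IDs called), without female sample 3 (0.0221, 0.387% called), without male sample 1 (0.00747, log2 fold change 1.21, 0.0904% called) and without male sample 3 (0.0144, 0.0539% called). Without female sample 1 or 2 the adjusted p rose to 0.808 and 0.809 and without male sample 2 to 0.225. In the fit without the low-count filter the SEs of Rmrp, Rpph1 and NR_046233 were nearly equal, at 0.145, 0.146 and 0.148. As reported they were 0.24, 0.28 and 0.44, and the SDs of log2 CPM within males were 0.48, 0.72 and 1.16. The p-values of the unfiltered fit thus do not follow the spread of each RNA between pools.

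Rpph1 averaged 6253 ± 1505 CPM in females and 11130 ± 5320 CPM in males. The log2 fold change was 0.83 with an SE of 0.28, and the adjusted p from edgeR was 0.344. Without male sample 1 the log2 fold change was 0.41 (adjusted p = 0.494), and only the edgeR fit with no low-count filter called it (adjusted p = 4.95e-06). The sexes overlapped, and the difference passed an unadjusted p of 0.05 but not the adjustment over all IDs.

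Terc averaged 6.76 ± 3.94 CPM in females and 11.3 ± 2.50 CPM in males, and its log2 fold change was 0.71 (SE 0.37, adjusted p = 0.472 by edgeR). It was called in none of the fits that gave it an adjusted p, which leaves out both DESeq2 fits, and its log2 fold change was 0.37 without female sample 2, 1.16 without female sample 1 and 0.59 without male sample 1 (adjusted p = 0.65). For NR_046233, at 17230 ± 6959 and 22740 ± 19580 CPM, the log2 fold change was 0.40 (SE 0.44, adjusted p = 0.748 by edgeR). It turned to -0.59 without male sample 1 (adjusted p = 0.324) and to -0.05 with DESeq2 and 1 RUVr factor. For NR_046233 no direction can be given.

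**Figure D2:**
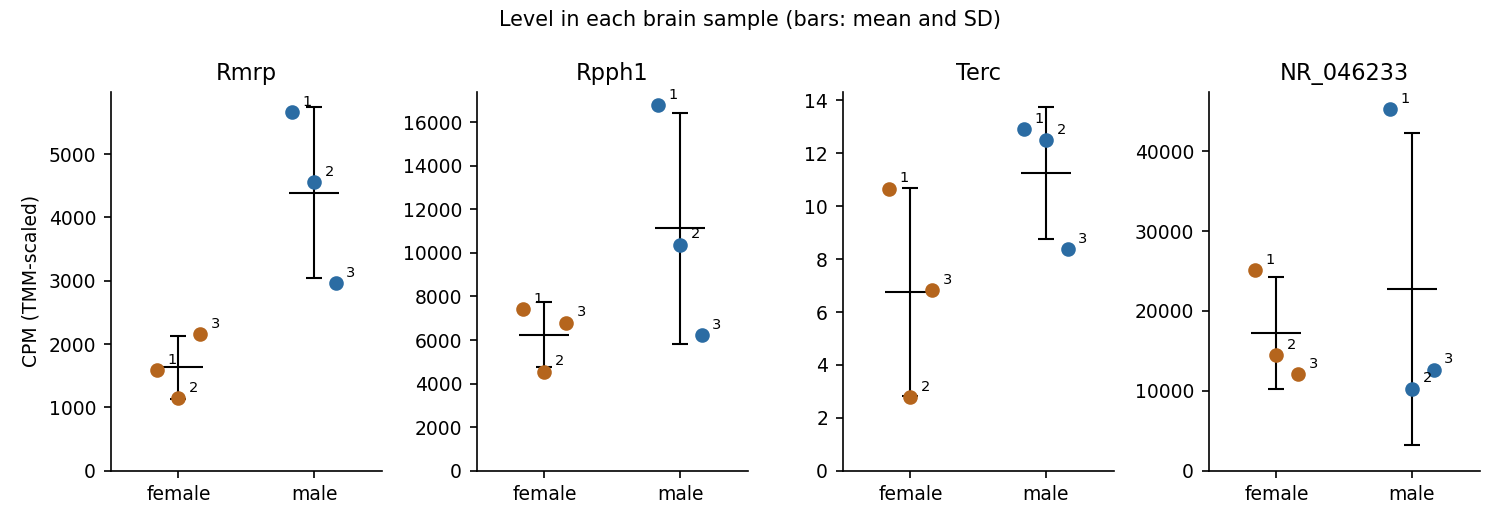
Points give the TMM-scaled CPM of each RNA in 3 female (brown) and 3 male (blue) brain samples, numbered by replicate, with a bar at the mean and whiskers of 1 SD, each panel on its own linear axis from 0. The sexes do not overlap for Rmrp (1147 to 2153 against 2961 to 5660 CPM) and overlap for the other 3.

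**Figure D3:**
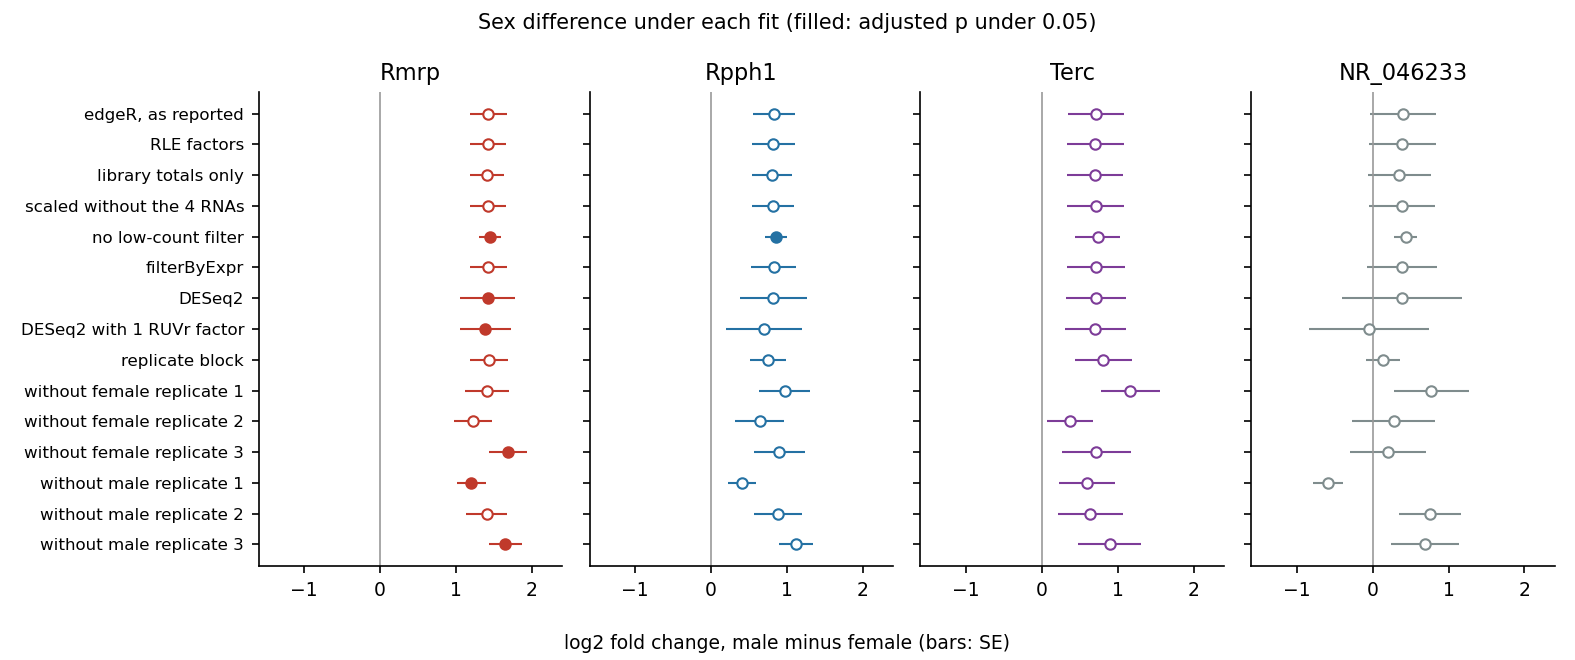
Each point is the log2 fold change, male minus female, with its SE, under the reported edgeR fit and 14 alternatives, 1 panel per RNA; filled points had an adjusted p under 0.05. Rmrp lay between 1.21 and 1.69 in all of the alternatives, and NR_046233 crossed 0 without male sample 1 (-0.59) and with DESeq2 and 1 RUVr factor (-0.05).

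On TMM-scaled CPM all 4 RNAs were highest in male sample 1 and differed in how they ordered the other samples, while on library totals Terc was highest in male sample 2. Deviations are TMM-scaled log2 CPM minus the RNA's mean over the 6 samples. Rmrp deviated by -0.70, -1.17 and -0.26 in females 1 to 3 and by 1.13, 0.82 and 0.19 in males 1 to 3. Rpph1 deviated by -0.10, -0.80 and -0.22, and by 1.08, 0.39 and -0.35. Rmrp, Rpph1 and Terc were each highest in males 1 and 2, in that order, and lowest in female sample 2. Terc deviated by 0.39, -1.46 and -0.24, and by 0.65, 0.61 and 0.05. NR_046233, at 0.55, -0.25 and -0.51 in females and 1.40, -0.74 and -0.44 in males, was lowest in male sample 2, where Rmrp was second highest.

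**Figure D4:**
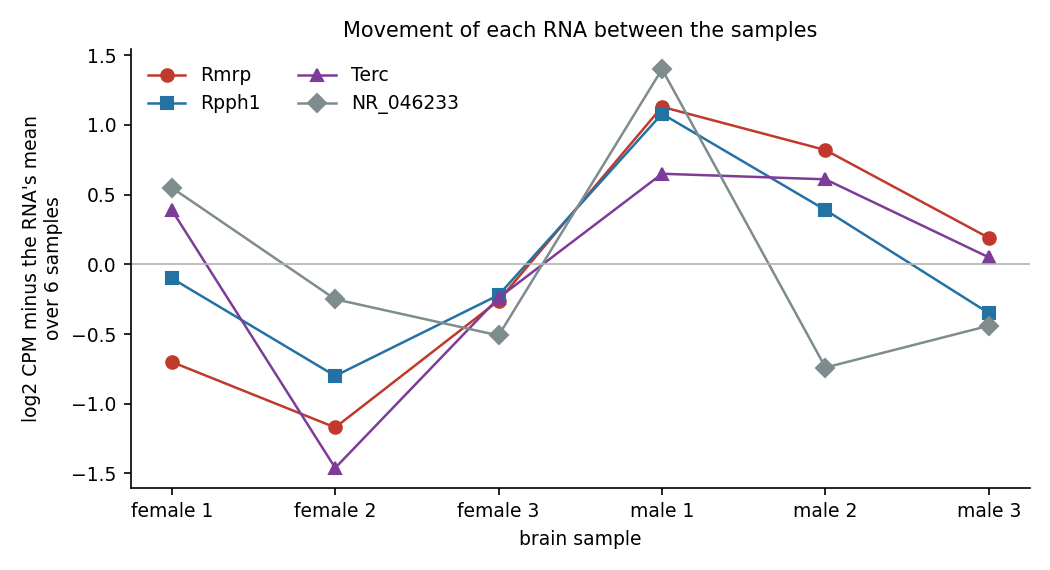
Lines join the log2 CPM of each RNA, as the deviation from its own mean over the 6 brain samples, for Rmrp (circles), Rpph1 (squares), Terc (triangles) and NR_046233 (diamonds). The samples have no order, and the lines only help to follow an RNA; Rmrp, Rpph1 and Terc nearly meet in female 3 (-0.26 to -0.22), and NR_046233 leaves them in male 2 (-0.74 against 0.39 to 0.82).

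The distance between a pair of RNAs was taken as the root mean square difference of these deviations over the 6 samples, given here with no test. Rmrp and Rpph1 differed by 0.41. Of the 8358 IDs that averaged 50 counts or more, 0.814% were nearer to Rmrp than Rpph1 was, and 6.38% were nearer to Rpph1 than Rmrp was. Rpph1 and Terc differed by 0.42, with 7.9% of IDs nearer to Rpph1 and 0.826% nearer to Terc, and Rmrp and Terc by 0.51, with 3.35% nearer to Rmrp and 4.42% nearer to Terc. NR_046233 was 0.60 from Rpph1, 0.84 from Terc and 0.95 from Rmrp. Seen from NR_046233, 4.3% of IDs were nearer than Rpph1, 80.6% nearer than Terc and 93.6% nearer than Rmrp. Nearer than NR_046233 were 81.6% of IDs seen from Rmrp, 52.5% seen from Rpph1 and 78.4% seen from Terc. The median distance of other IDs was 0.80 from Rmrp, 0.60 from Rpph1, 0.73 from Terc and 0.75 from NR_046233.

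Several of these shares depended on male sample 1, in which all 4 RNAs were highest, and were computed again without it after the values were seen. The distances moved little, to 0.44 for Rmrp and Rpph1, 0.41 for Rpph1 and Terc and 0.51 for Rmrp and Terc. From NR_046233 they were 0.64 to Rpph1, 0.84 to Terc and 1.03 to Rmrp. Of all IDs, 4.57% were then nearer to Rmrp than Rpph1 was, and 63.1% nearer to Rpph1 than Rmrp was. Seen from Rmrp, 9.84% were nearer than Terc and 97.6% nearer than NR_046233. Seen from Rpph1, 51.5% were nearer than Terc and 94.7% nearer than NR_046233. Seen from NR_046233, 90.4% were nearer than Rpph1, 98.7% nearer than Terc and 99.6% nearer than Rmrp. Without male sample 1, Rmrp and Terc were thus no nearer to Rpph1 than the middle of all IDs. Seen from Terc, 0.814% of IDs were nearer than Rpph1, 3.9% nearer than Rmrp and 81.4% nearer than NR_046233.

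Ratios of counts within a sample do not depend on scaling. Rmrp had 0.214, 0.252 and 0.317 counts per count of Rpph1 in females and 0.337, 0.439 and 0.476 in males. All males lay above all females, and the mean log2 ratio was 0.68 higher in males. Of the 13373 other IDs tested, 0.112% had a ratio to Rpph1 that was higher in every male than in every female, with Rmrp among them. This share is low in part because Rpph1 was itself higher in males (log2 fold change 0.83). By CPM alone, 8.7% of tested IDs did not overlap with males above. The gap between female 3 and male 1 was small, at 0.317 and 0.337, and males 2 and 3 lay higher still.

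The ratio of Rpph1 to NR_046233 was 0.295, 0.314 and 0.563 in females and 0.370, 1.01 and 0.492 in males, and the sexes overlapped. That of Rmrp to NR_046233 was 0.0632, 0.0792 and 0.178 in females and 0.125, 0.443 and 0.234 in males, a 7.02-fold range that also overlapped. Terc per Rmrp count ranged 2.94-fold and Terc per Rpph1 count 2.35-fold over the 6 samples, both with overlap of the sexes.

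**Figure D5:**
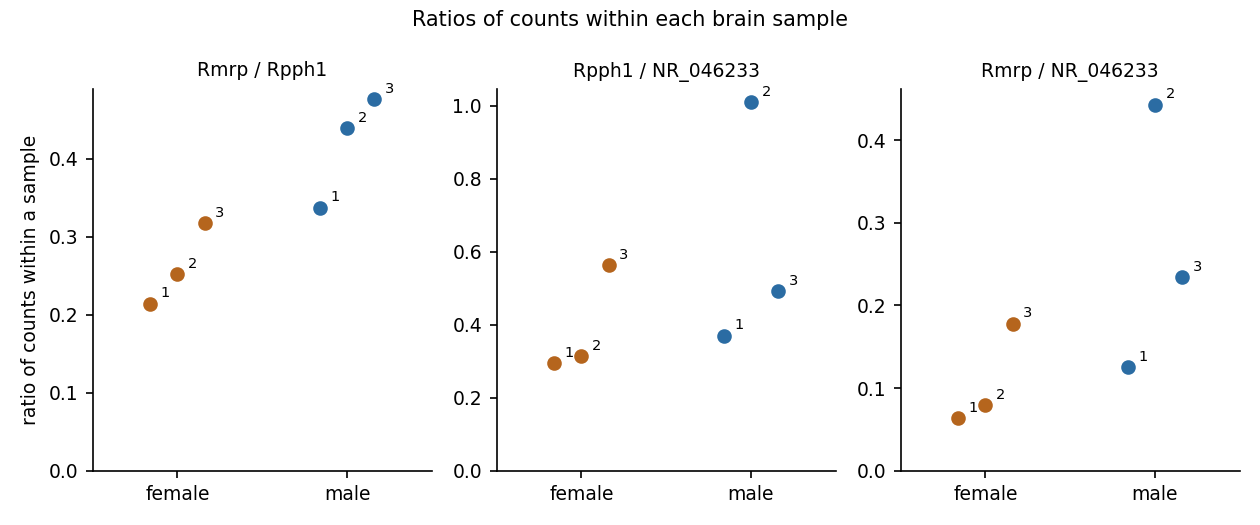
Points give the ratio of 2 RNAs' counts within each female (brown) and male (blue) brain sample, numbered by replicate, on linear axes from 0. Of these 3 ratios, the sexes separate only for Rmrp over Rpph1 (0.214 to 0.317 against 0.337 to 0.476).

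These RNAs varied between samples more than most IDs of high count. The SD of log2 CPM over the 6 samples was 0.89 for Rmrp, 0.65 for Rpph1 and 0.82 for NR_046233, against a median of 0.17 over the 3635 IDs that averaged 500 counts or more, of which 99.7%, 99.1% and 99.5% had a lower SD. Within females the SD was 0.45, 0.38 and 0.55, and within males 0.48, 0.72 and 1.16, against medians of 0.13 and 0.15. Between males 2 and 3 alone, computed after the values were seen, the SD was 0.44 for Rmrp, 0.52 for Rpph1 and 0.21 for NR_046233, against a median of 0.10, so the male SD of NR_046233 rested on male sample 1. From the lowest to the highest sample the ranges were 4.93-fold for Rmrp, 3.69-fold for Rpph1 and 4.41-fold for NR_046233. On the log2 scale these ranges were 2.30, 1.88 and 2.14, and without male sample 1 they were 1.99, 1.19 and 1.29. Without male sample 1 the SD was 0.77 for Rmrp, 0.43 for Rpph1 and 0.50 for NR_046233. Terc, with an SD of 0.79 (0.81 without male sample 1), has too few counts for this comparison.

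For each RNA the 3 IDs with the nearest profile over the 6 samples were listed. Nearest to Rmrp were Rps14, a protein of the small ribosomal subunit (distance 0.21), the histone gene H4c11 (0.24) and Scarna10, a small Cajal body RNA (0.25). Rps14 was at 148, 113 and 253 CPM in females and 512, 341 and 321 CPM in males. Nearest to Rpph1 were Pcbd2 (0.16), the histone gene H4c3 (0.20) and the ubiquitin-conjugating enzyme gene Ube2s (0.24). H4c3 was at 248, 157 and 178 CPM in females and 454, 400 and 191 CPM in males. Nearest to Terc were Tmem198 and Slc25a46 (0.27 each) and the ID NM_001253883 of the pyruvate kinase gene Pkm (0.28). Nearest to NR_046233 were Hmgn5 (0.34), the small nucleolar RNA Snord17 (0.34) and the translation initiation factor gene Eif1 (0.36). Snord17 was at 64.2, 47.0 and 27.6 CPM in females and 122, 49.3 and 40.1 CPM in males. None of these 12 IDs was called between the sexes by edgeR, and the lowest adjusted p was 0.338.

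The genes beside the loci were examined because reads of an overlapping gene can be assigned to its partner, and whether strand was used in counting is not given in the sources used here. Ccdc107 had 97, 84 and 186 counts in females and 295, 154 and 256 in males, far below the Rmrp counts in every sample. Its log2 fold change was 0.63 (SE 0.18, adjusted p = 0.341 by edgeR), in the same direction as that of Rmrp. Arhgef39, a neighbour in the same region, was at 0.55 (SE 0.21, adjusted p = 0.376). Parp2, beside Rpph1, was at -0.05 (SE 0.14). The Rpph1-related genes Rprl1, Rprl2 and Rprl3 had 0 to 2 counts in each sample.

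The proteins that work with these RNAs were taken from 6 lists of 74 genes, of which 63 had an ID and 56 IDs were tested. None was called by edgeR. DESeq2 called 1 of the 34 to which it gave an adjusted p, where it called 1.91% of all such IDs, and DESeq2 with 1 RUVr factor called 2 of 49, where it called 4.82% of all. Without the low-count filter edgeR called 2 of 70, against 1.18% of all IDs. At an unadjusted p under 0.05, 8 of the 56 (14.3%) were higher in males, against 6.68% of all IDs, and 1 (1.79%) was higher in females, against 4.82%. The median log2 fold change was 0.03, beside -0.01 for all tested IDs.

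Of the proteins of RNase MRP and RNase P, 9 of 11 genes were tested, with a median log2 fold change of 0.15 and a range from -0.08 to 0.41. Pop4, a subunit of both enzymes, was at 89.8 ± 16.6 CPM in females and 92.9 ± 10.8 in males, with a log2 fold change of 0.05 (SE 0.15). Rpp30 was at 31.5 ± 3.33 and 34.9 ± 4.53 CPM, at 0.15 (SE 0.17). Rpp25l was at 18.9, 21.5 and 28.8 CPM in females and 32.9, 32.3 and 27.7 in males, at 0.41 (SE 0.19, adjusted p = 0.434 by edgeR). Rmrp itself was at 1.43, and that the RNA differed from its proteins in sex effect was not tested.

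Among telomerase and H/ACA proteins, 7 IDs were tested and 1 was past an unadjusted p of 0.05. Nop10, an H/ACA protein bound to telomerase RNA, was at 48.0, 52.0 and 67.9 CPM in females and 99.7, 96.7 and 76.0 in males, with a log2 fold change of 0.69 (SE 0.16, adjusted p = 0.338 by edgeR). The sexes did not overlap, as for 8.7% of all tested IDs with males above. DESeq2 called it (adjusted p = 0.0239, 1.91% of its IDs called), as did DESeq2 with 1 RUVr factor (0.0042, 4.82% called) and edgeR without the low-count filter (0.00258, 1.18% called). Nhp2 was at 0.25 (SE 0.16) and Naf1 at -0.03 (SE 0.20). The list as a whole had a median of -0.03.

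Of RNA polymerase I and its factors, 8 IDs were tested, with a median log2 fold change of 0.09. The 3 most abundant were Rrn3 at 0.08 (SE 0.12), Polr1a at -0.04 (SE 0.15) and Polr1b at 0.11 (SE 0.15). The subunit genes Polr1c (0.54, SE 0.18) and Polr1d (0.49, SE 0.15), whose proteins also belong to RNA polymerase III, were past an unadjusted p of 0.05 and both had an adjusted p of 0.341 by edgeR. RNA polymerase III and its promoter factors, 17 IDs, had a median of -0.04, with Bdp1 at -0.28 (SE 0.13), Polr3k at 0.28 (SE 0.13) and Polr3f at 0.03 (SE 0.13). Snapc2, a subunit of the complex that binds small nuclear RNA promoters, was past an unadjusted p of 0.05 and higher in males (0.40, SE 0.18, adjusted p = 0.419 by edgeR).

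Factors that process pre-ribosomal RNA, 9 IDs, had a median of -0.05. Ncl, which encodes the nucleolar protein nucleolin, was at 610, 627 and 443 CPM in females and 494, 258 and 387 in males, with a log2 fold change of -0.56 (SE 0.20, adjusted p = 0.363 by edgeR), and edgeR called it without the low-count filter (-0.53, adjusted p = 0.0223, 1.18% of IDs called). Nop58 was at -0.17 (SE 0.11) and Utp20 at -0.22 (SE 0.13). Bop1 (0.49) and Pes1 (0.31), both of the complex that matures the large subunit RNA, were past an unadjusted p of 0.05 in the other direction, and Bop1 was called by DESeq2 with 1 RUVr factor (0.47, adjusted p = 0.0401, 4.82% of IDs called). Of the 7SK and P-TEFb proteins, 6 IDs were tested and none was past an unadjusted p of 0.05, with a median of -0.05 and Ccnt2 at -0.14 (SE 0.16), Mepce at 0.04 (SE 0.16) and Hexim1 at -0.02 (SE 0.16).

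Other short structured RNAs were few. Of 31 listed, 8 had an ID and 2 were tested. Rnu11, a small nuclear RNA of the minor spliceosome, was at 5.66, 7.58 and 2.14 CPM in females and 2.38, 1.22 and 1.60 in males, with overlap and a log2 fold change of -1.51 (SE 0.51, adjusted p = 0.344 by edgeR), against the direction of Rmrp. Rnu12, of the same spliceosome, was at 1.08 ± 0.622 and 1.10 ± 0.124 CPM. The vault RNA Vaultrc5 and the brain RNA Bc1, which did not pass the filter, had 0 to 8 and 0 to 4 counts.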

How the data were processed

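Whole-brain RNA of 3 female and 3 male pools of embryos was sequenced. The values are raw counts per RefSeq transcript ID, deposited by the authors. Per the study's methods and the submitters' processing notes, reads were trimmed with Trimmomatic 0.32, aligned to mm9 with TopHat2 2.1.1, assembled with Cufflinks 2.2.1 and counted with featureCounts 1.5.1. How multi-mapping reads, strand and read pairs were treated is not given in the sources used here, which bears on short RNAs with related copies. IDs were matched to symbols through a RefSeq gene table (99.5% of IDs). Positions came from GENCODE, where the 3 genes bear other names and were matched by their neighbours in RefSeq.

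The main test was edgeR 4.0.16 (quasi-likelihood F test, TMM factors) in R 4.3.3, male against female, over IDs that reached 10 counts in any sample, adjusted by Benjamini-Hochberg over all tested IDs and called under 0.05. It was tested on simulated data. Log2 CPM used a prior count of 2. DESeq2 1.42.0, alone and with 1 RUVr factor from the leading component of deviance residuals, was an alternative. p-values measure the spread between pools, except in the edgeR fit without the low-count filter, where RNAs of unlike spread had nearly equal SEs. The members and the lists of partner genes and markers were chosen with earlier results of these data known, so no p was computed over a list. The text names all members, the 3 most abundant genes of each list, called genes and the 3 nearest IDs. Genes past an unadjusted p of 0.05, genes beside the loci, Malat1, Vaultrc5, Bc1 and the Rprl genes were named after their values were seen. Samples were grouped by the sex in their labels. Totals of 4908565 to 10294443 counts put 3 counts at 0.291 to 0.611 CPM.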

Additional observations from a re-analysis of the deposited data

How the results depend on the processing

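Over all IDs, 4 were called by edgeR as reported, 276 without the low-count filter, 107 by DESeq2 and 370 by DESeq2 with 1 RUVr factor, and 4 to 51 when a sample was left out. Of the 4 members, none was called as reported and 2 without the filter. Of the 3 with an adjusted p in DESeq2, 1 was called by DESeq2 and 1 with the RUVr factor. The count was 0 to 1 when a sample was left out. Of the partner IDs, 2 of 70 were called without the filter (1.18% of all IDs), 1 of 34 by DESeq2 (1.91%), 2 of 49 with the RUVr factor (4.82%) and 0 of 56 whichever sample was left out. The log2 fold change of NR_046233 was -0.05 with the RUVr factor and ran from -0.591 to 0.774 when a sample was left out, negative only without male sample 1. The cause was not tested. Rmrp kept its direction in 14 of 14 alternatives, Rpph1 in 14 and Terc in 14. With the replicate block, Rmrp was at 1.43 (adjusted p = 0.19), none of the members was called, and 4 IDs were called. The replicate numbers do not mark a shared litter or day in the labels, and same-numbered samples correlated at -0.316, -0.036 and -0.267 in their deviations, so the block result is given only here. Joint shares, ranges and SDs moved by less than the spread between samples under another total or scaling. Counting error limits only Terc, whose 14 counts in female sample 2 gave an interval of 54.1% of the value to either side.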
